A study of Homo sapiens with 12 samples.

Results

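Vimentin, fibronectin, N-cadherin and osteonectin (VIM, FN1, CDH2 and SPARC), which mark mesenchymal cells, and the transcription factors ZEB1, ZEB2, SNAI1, SNAI2 and TWIST1 were followed through RNA-seq of MDA-MB-231 cells. They were picked by gene name as the usual markers and regulators of the epithelial-mesenchymal transition (EMT), and are 9 of the 58735 genes counted. MDA-MB-231 is an established human breast cancer line of triple-negative type. The cells carried a guide RNA against UFM1, a guide against UFL1 or a control guide. In UFMylation, the ligase UFL1 couples the ubiquitin-like protein UFM1 to target proteins, largely at the endoplasmic reticulum. By the labels there are 4 groups of 3 libraries, namely sgUFM1, sgUFL1, sgCtrl_to_sgUFM1 and sgCtrl_to_sgUFL1, with no drug and no time course. The labels speak of knockout in the design and of knockdown in the title, and do not say whether the cells were clones or pools or whether replicates were separate cultures, so p-values measure the spread between libraries, which may be technical.

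In EMT, epithelial cells lose their junctions and gain a motile, matrix-producing state. ZEB and SNAI proteins are zinc-finger repressors that bind E-box DNA in front of epithelial genes such as CDH1, the E-cadherin gene, and TWIST1 is a helix-loop-helix factor with a related role. The miR-200 family of microRNAs silences ZEB1 and ZEB2 in epithelial cells, and the ZEB proteins in turn repress the miR-200 genes.

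The deposited count table and FPKM table exchange the names of a pair of groups. Libraries called sgUFL1 among the counts carry the name sgCtrl_to_sgUFM1 among the FPKM values and are referred to as set A. Libraries called sgCtrl_to_sgUFM1 among the counts carry the name sgUFL1 among the FPKM values and are referred to as set B. The sgUFM1 libraries and the controls for sgUFL1 (sgCtrl_to_sgUFL1) have the same names in both. The own controls of sgUFM1 are therefore set B by the count names and set A by the FPKM names, and the sgUFL1 cells are set A by the count names and set B by the FPKM names. Libraries held 15342793 to 18033331 counts. The mean GC content of counted transcripts was 49.09% to 49.58% in sgUFM1, 49.6% to 49.84% in set A, 49.72% to 50.26% in set B and 47.59% to 48.66% in the controls for sgUFL1. UFM1 stood at 37.1, 39.7 and 39.4 CPM (counts relative to library size after TMM scaling) in sgUFM1, against 49.2 to 71.0 CPM in the other 9 libraries. UFL1 stood at 16.6 to 19.4 CPM in set A, 11.5 to 13.1 CPM in set B and 19.7 to 30.2 CPM in the controls for sgUFL1. It was lower in set B than in those controls (log2 -1.02, adjusted p = 0.00166), and the difference of set A from them missed the threshold (log2 -0.45, adjusted p = 0.13; edgeR quasi-likelihood test, Benjamini-Hochberg).

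Sequences are shown for the miRNAs known to target ZEB1 and ZEB2, and then for promoters of 3 genes called higher in sgUFM1 than in set B. The 5 mature miR-200 family members are given 5′ to 3′ with the seed, bases 2 to 8, in capitals (RefSeq, GRCh38.p14).
hsa-miR-141-3p: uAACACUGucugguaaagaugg
hsa-miR-200a-3p: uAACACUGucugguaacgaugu
hsa-miR-200b-3p: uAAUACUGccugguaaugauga
hsa-miR-200c-3p: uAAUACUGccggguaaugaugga
hsa-miR-429: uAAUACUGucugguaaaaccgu
They form a group of 2 with the seed AACACUG (miR-141-3p and miR-200a-3p) and a group of 3 with AAUACUG (miR-200b-3p, miR-200c-3p and miR-429). The genes that give rise to them (MIR141, MIR200A, MIR200B, MIR200C, MIR429 and the host transcript MIR200CHG) had 0 counts in all 12 libraries. A count of 0 allows up to 3 counts, or 0.164 to 0.197 CPM per library, a limit that covers counting error only. These gene counts do not measure mature microRNAs.

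Promoter windows of 250 bases before to 50 bases after a start site (RefSeq, GRCh38.p14) are printed for VIM, ZEB1 and ZEB2, the 3 genes called higher in sgUFM1 than in set B, where 19.3% of all genes tested were called higher. Capitals mark the E-box CAGGTG, the motif bound by ZEB and SNAI proteins, or its complement CACCTG, and the GC box GGGCGG or CCGCCC, a site of SP1-type factors. The search covered both strands, and the motifs do not overlap each other.
VIM, chr10:17227991-17228290, plus strand: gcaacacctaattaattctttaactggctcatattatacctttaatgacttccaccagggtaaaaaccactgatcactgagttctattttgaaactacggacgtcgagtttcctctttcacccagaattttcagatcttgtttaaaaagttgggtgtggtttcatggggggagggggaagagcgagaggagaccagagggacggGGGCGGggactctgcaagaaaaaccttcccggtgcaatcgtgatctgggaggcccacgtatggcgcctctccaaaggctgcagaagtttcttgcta
ZEB1 window 1, chr10:31318167-31318466, plus strand: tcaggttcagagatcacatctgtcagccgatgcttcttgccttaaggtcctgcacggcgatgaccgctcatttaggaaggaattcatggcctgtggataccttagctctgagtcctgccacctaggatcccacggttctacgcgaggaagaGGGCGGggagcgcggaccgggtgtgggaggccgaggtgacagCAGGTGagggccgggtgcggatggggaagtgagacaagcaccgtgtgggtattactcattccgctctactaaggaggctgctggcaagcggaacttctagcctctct
ZEB1 window 3, chr10:31318966-31319265, plus strand: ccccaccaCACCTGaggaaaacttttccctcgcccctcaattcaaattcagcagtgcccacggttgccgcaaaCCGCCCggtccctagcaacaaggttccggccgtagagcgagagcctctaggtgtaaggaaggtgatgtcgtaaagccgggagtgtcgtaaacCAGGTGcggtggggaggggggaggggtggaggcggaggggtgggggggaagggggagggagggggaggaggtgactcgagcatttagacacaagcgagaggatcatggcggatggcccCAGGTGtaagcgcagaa
ZEB2, chr2:144520070-144520369, minus strand: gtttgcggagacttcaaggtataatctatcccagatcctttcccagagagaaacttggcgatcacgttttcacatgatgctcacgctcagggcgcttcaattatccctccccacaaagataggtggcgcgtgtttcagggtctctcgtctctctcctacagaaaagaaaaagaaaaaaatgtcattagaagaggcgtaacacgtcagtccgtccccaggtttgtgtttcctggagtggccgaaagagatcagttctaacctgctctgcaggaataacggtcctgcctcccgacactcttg
ZEB1 has 7 windows in the table. Window 1 held 1 E-box and window 3 held 3. Windows 2, 4, 5, 6 and 7 held 0 E-boxes and are not printed, and the VIM and ZEB2 windows held 0. Of all 35116 windows, 20.6% held an E-box and 45% a GC box. Among epithelial genes repressed in EMT, 11 of 20 windows (55%) held an E-box, and among other mesenchymal and matrix genes 4 of 30 (13.3%). A GC box was in 13 of 20 (65%) and 19 of 30 (63.3%) windows of the same lists. The FN1 window (chromosome 2, 215436019 to 215436318, minus strand) held 6 GC boxes and 0 E-boxes. A match is a string of letters and not a measured binding site.

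The 9 genes spanned the whole range of expression. Compared per length, as FPKM (deposited values, scaled to transcript length and library size), VIM averaged 173 ± 19.6 (SD, n = 12 libraries), above 99.2% of protein-coding genes. FN1 followed at 11.4 ± 1.79 FPKM, ZEB1 at 5.90 ± 1.20, SNAI2 at 3.82 ± 1.06, SNAI1 at 2.33 ± 0.303 and ZEB2 at 1.10 ± 0.161. SPARC averaged 0.152 FPKM with 145 counts over 12 libraries, CDH2 averaged 0.0534 FPKM with 52 counts, and TWIST1 had 0 counts in every library. CDH1 stood at 0 to 0.34 CPM and EPCAM, an epithelial surface protein gene, at 5.89 to 9.73 CPM. The line thus showed VIM, FN1 and ZEB1 with almost no CDH1, while SPARC, CDH2 and TWIST1, which are also counted as mesenchymal markers, were at or near 0. The filter on low counts passed 7 of the 9 genes in each of the 6 comparisons, leaving out CDH2 and TWIST1.

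**Figure D1:**
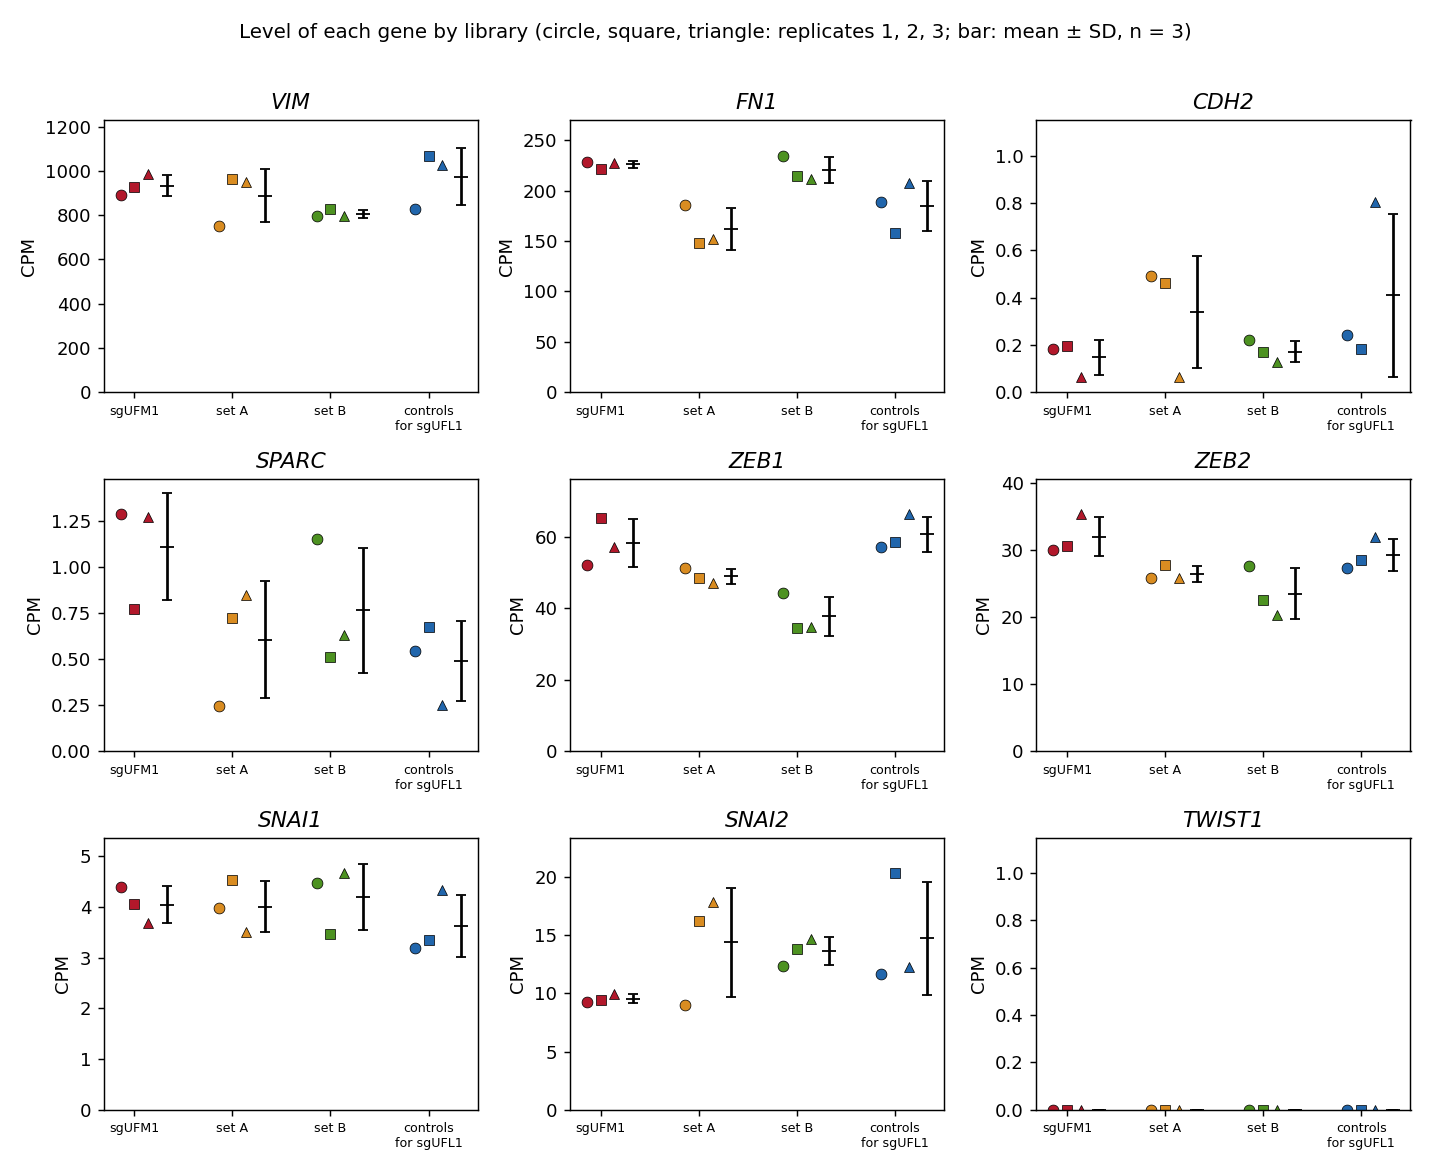
Level of each of the 9 genes in CPM (vertical axis, from 0) in the 4 sets of libraries, with a point per library and the mean ± SD (n = 3) beside the points. ZEB1 is lowest in set B, SNAI2 is spread widely in set A and in the controls for sgUFL1 but tightly in sgUFM1, and TWIST1 is at 0 throughout.

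VIM encodes vimentin, the intermediate filament protein of mesenchymal cells. It stood at 890.5, 927 and 985 CPM in sgUFM1, at 749.8, 964 and 951 CPM in set A, at 795, 828 and 795 CPM in set B, and at 828, 1070 and 1027 CPM in the controls for sgUFL1. The sgUFM1 libraries were all above the set B libraries, and the other sets overlapped sgUFM1. VIM was 1.16-fold higher in sgUFM1 than in set B (log2 0.22, SE 0.0582, 95% interval 0.10 to 0.34, adjusted p = 0.0054). This call was lost in 1 fit over all 12 libraries (log2 0.21, adjusted p = 0.192). The interval was -0.32 to 0.19 for sgUFM1 against the controls for sgUFL1 and -0.15 to 0.30 against set A (log2; adjusted p = 0.743 and 0.693). Set B lay just below the controls for sgUFL1, and the difference missed the threshold (log2 -0.30, adjusted p = 0.0636). Without replicate 1 of those controls it passed (log2 -0.38, adjusted p = 0.0233). In order of mean level the sets ran from the controls for sgUFL1 (975 ± 129 CPM) over sgUFM1 (934 ± 47.5) and set A (888 ± 120) to set B (806 ± 18.8), and no neighbours in that order passed the test. VIM overlaps the antisense gene VIM-AS1, which was at 2.12 to 5.07 CPM, and strand use in counting is not stated.

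FN1 encodes fibronectin, a matrix glycoprotein that cells bind through integrins. It stood at 229, 221 and 227 CPM in sgUFM1, at 186, 148 and 152 CPM in set A, at 235, 214.5 and 212 CPM in set B, and at 189, 158 and 208 CPM in the controls for sgUFL1. The sgUFM1 libraries were all above set A and above the controls for sgUFL1, and within the range of set B. FN1 was 1.39-fold higher in sgUFM1 than in set A (log2 0.48, SE 0.0946, 95% interval 0.27 to 0.68, adjusted p = 0.0124). The call ended when sgUFM1 replicate 1 (adjusted p = 0.0502), 2 (0.0778) or 3 (0.0786) or set A replicate 3 (0.0514) was left out, with log2 differences of 0.43 to 0.49. Against the controls for sgUFL1 the difference missed the threshold (log2 0.28, adjusted p = 0.125), and it passed without replicate 3 of those controls (log2 0.37, adjusted p = 0.0469). Against set B it was log2 0.04 (adjusted p = 0.651). With offsets for GC content and length of each transcript that last difference turned to log2 -0.20 (adjusted p = 0.00313), while FN1 then passed against the controls for sgUFL1 in sgUFM1 (log2 0.42, adjusted p = 0.00787) and in set B (log2 0.62, adjusted p = 0.0018). FN1 was lower in set A than in set B with no overlap, just short of the threshold (log2 -0.45, adjusted p = 0.0528), and was called there in 5 alternatives and without set A replicate 1.

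ZEB1, the zinc-finger E-box repressor best known for silencing CDH1, had the largest called difference of the 9 genes. It stood at 52.3, 65.4 and 57.2 CPM in sgUFM1, at 51.3, 48.6 and 47.0 CPM in set A, at 44.2, 34.6 and 34.7 CPM in set B, and at 57.1, 58.7 and 66.4 CPM in the controls for sgUFL1. Every set B library was below every library of the other 3 sets, and every set A library was below sgUFM1 and below the controls for sgUFL1. ZEB1 was 1.55-fold higher in sgUFM1 than in set B (log2 0.63, SE 0.103, 95% interval 0.41 to 0.84, adjusted p = 8.43e-05). It was also lower in set B than in the controls for sgUFL1, at 0.614 of their level (log2 -0.70, SE 0.133, 95% interval -0.99 to -0.42, adjusted p = 0.00255). The 2 comparisons share set B. The first call held in all 15 alternatives, with log2 0.35 to 0.75. The second was lost with offsets for GC content and length (log2 -0.22, adjusted p = 0.134). Exons of ZEB1 have 38.49% GC, the lowest of the 9 genes, beside mean transcript GC of 49.72% to 50.26% in set B and 47.59% to 48.66% in those controls. Between set A and the controls for sgUFL1 the difference missed the threshold (log2 -0.30, SE 0.11, adjusted p = 0.123), and with the offsets it was log2 0.01 (adjusted p = 0.981). Between sgUFM1 and set A it was log2 0.25 (adjusted p = 0.128), and between sgUFM1 and the controls for sgUFL1 log2 -0.07 (95% interval -0.32 to 0.19). ZEB1 overlaps the antisense gene ZEB1-AS1, at 3.43 to 6.96 CPM.

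ZEB2, the paralog of ZEB1, stood at 30.1, 30.7 and 35.4 CPM in sgUFM1, at 25.8, 27.8 and 25.8 CPM in set A, at 27.7, 22.6 and 20.3 CPM in set B, and at 27.3, 28.6 and 31.9 CPM in the controls for sgUFL1. The sgUFM1 libraries lay above both set A and set B and overlapped the controls for sgUFL1. ZEB2 was 1.37-fold higher in sgUFM1 than in set B (log2 0.45, SE 0.11, 95% interval 0.22 to 0.68, adjusted p = 0.00314). The call was lost with offsets for GC content and length (log2 0.12, adjusted p = 0.298) and in limma on FPKM values (log2 0.24 to 0.42 over 3 pseudocounts, adjusted p = 0.11 to 0.111). Against set A the difference was log2 0.28 (adjusted p = 0.107). In set B against the controls for sgUFL1 it was log2 -0.34 (SE 0.148, adjusted p = 0.0906), and without set B replicate 1 it passed (log2 -0.45, adjusted p = 0.0479). Exons of ZEB2 have 39.08% GC. The ratio of ZEB1 to ZEB2 in CPM, which is not per length and so no comparison of their levels, varied between 1.53 and 2.13 over the 12 libraries.

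SNAI2 (SLUG), a repressor of the snail family, was the factor that was lower in sgUFM1. It stood at 9.23, 9.40 and 9.97 CPM in sgUFM1, at 9.03, 16.2 and 17.9 CPM in set A, at 12.4, 13.8 and 14.7 CPM in set B, and at 11.6, 20.3 and 12.2 CPM in the controls for sgUFL1. The sgUFM1 libraries were below every library of set B and of the controls for sgUFL1, and overlapped set A through its replicate 1 alone. SNAI2 was lower in sgUFM1 than in set B, at 0.704 of its level (log2 -0.51, SE 0.128, 95% interval -0.77 to -0.24, adjusted p = 0.00387). That call was lost in 1 fit over all 12 libraries (log2 -0.52, adjusted p = 0.135). Against the controls for sgUFL1 the log2 difference was -0.63 (SE 0.21, 95% interval -1.09 to -0.18, adjusted p = 0.0716), which passed with no filter on low counts (adjusted p = 0.0119) and in DESeq2 (adjusted p = 0.0389). Without replicate 2 of those controls it was -0.33 (adjusted p = 0.124). Against set A it was -0.59 (SE 0.215, adjusted p = 0.109), and -0.83 (adjusted p = 7.17e-05) without set A replicate 1. The highest replicate was 1.08 times the lowest in sgUFM1, 1.98 times in set A, 1.19 times in set B and 1.75 times in the controls for sgUFL1. Per length, ZEB1 was at 2.22, 2.73 and 2.25 times the FPKM of SNAI2 in sgUFM1, at 2.23, 1.18 and 1.03 times in set A, at 1.4, 0.979 and 0.926 times in set B, and at 1.93, 1.13 and 2.13 times in the controls for sgUFL1.

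SNAI1, the snail factor that acts early in EMT, stood at 4.40, 4.06 and 3.68 CPM in sgUFM1, at 3.99, 4.53 and 3.51 CPM in set A, at 4.48, 3.46 and 4.67 CPM in set B, and at 3.19, 3.36 and 4.33 CPM in the controls for sgUFL1. All sets overlapped, and no comparison passed in any alternative. The log2 differences lay between -0.08 and 0.19, and that of set B against the controls for sgUFL1 was -0.32 with the offsets. With 53 to 82 counts per library the intervals were wide, for example -0.37 to 0.68 for sgUFM1 against the controls for sgUFL1.

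SPARC, the gene of the matrix-binding glycoprotein osteonectin, had 21, 12 and 20 counts in sgUFM1, 4, 11 and 13 in set A, 21, 9 and 10 in set B, and 9, 11 and 4 in the controls for sgUFL1. Its sgUFM1 libraries were above the controls for sgUFL1, with a log2 difference of 1.17 (SE 0.475, 95% interval 0.14 to 2.19) that missed the threshold (adjusted p = 0.128). CDH2, the N-cadherin gene, had 3, 3 and 1 counts in sgUFM1, 8, 7 and 1 in set A, 4, 3 and 2 in set B, and 4, 3 and 13 in the controls for sgUFL1, and the filter on low counts left it out. With no filter its log2 difference in sgUFM1 was -1.44 against those controls (SE 0.951, adjusted p = 0.478), -0.22 against set B (adjusted p = 0.928) and -1.17 against set A (adjusted p = 0.605). TWIST1 allowed no comparison at 0 counts, and its paralog TWIST2 had at most 1 count. After the filter CDH2 and TWIST1 were not tested, and SPARC was tested but called in no comparison. With 4 to 21 counts per library the intervals of SPARC were wide.

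**Figure D2:**
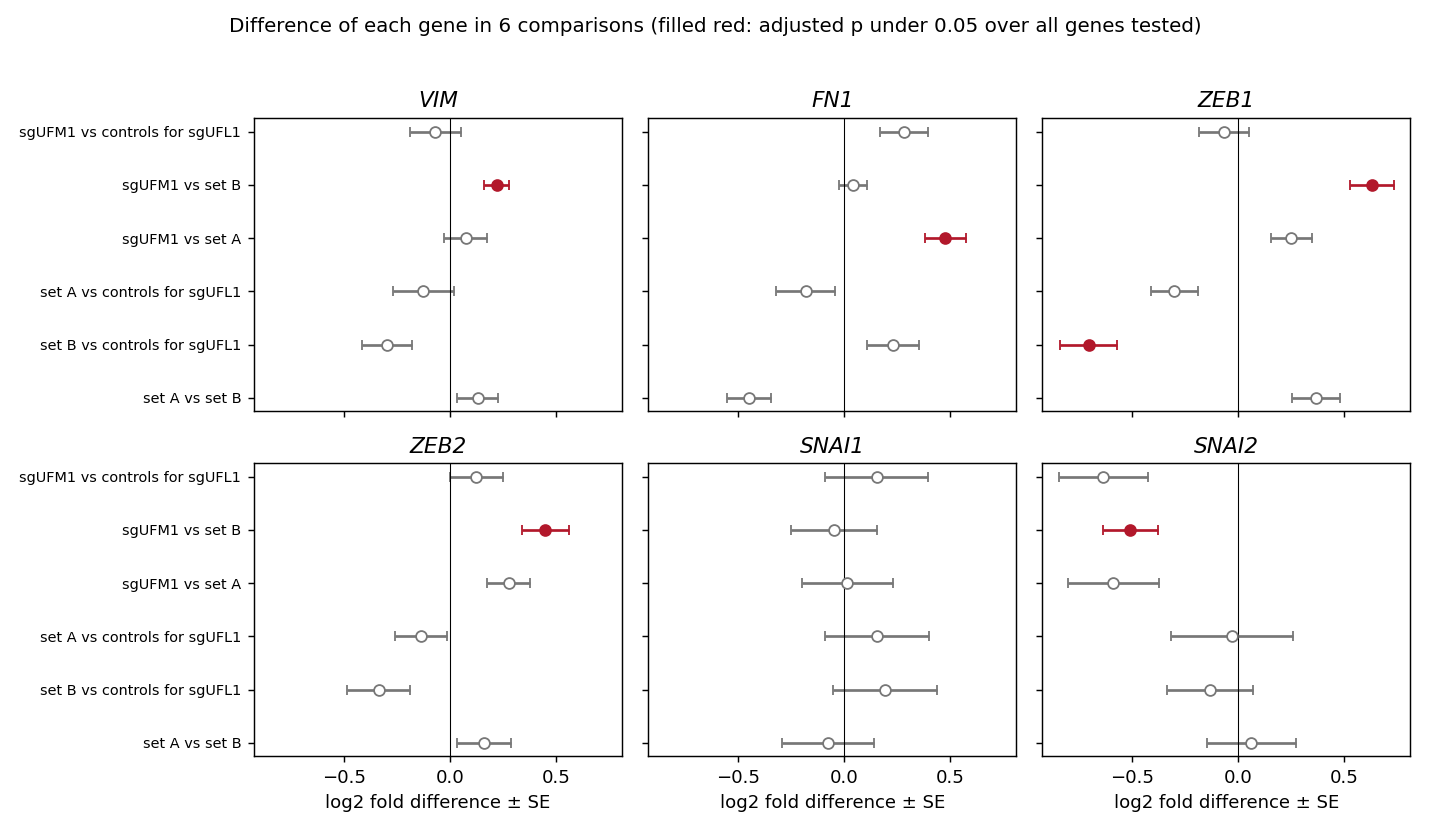
Log2 fold difference with its standard error (horizontal axis) of the 6 better expressed genes in the 6 comparisons, with filled red points where the adjusted p was under 0.05. The comparison of sgUFM1 with set B holds 4 of the 6 filled points, sgUFM1 against set A holds FN1, and set B against the controls for sgUFL1 holds ZEB1.

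Counted by comparison, 4 of the 7 genes tested were called in sgUFM1 against set B, where VIM, ZEB1 and ZEB2 were higher and SNAI2 was lower. In that comparison 37.8% of all genes tested were called, 19.3% higher and 18.5% lower. In sgUFM1 against set A, FN1 alone of the 7 was called, where 9.72% of all genes were. Hence FN1 is the called gene for sgUFM1 against its own controls by the FPKM names, and VIM, ZEB1, ZEB2 and SNAI2 are those by the count names. Against the controls for sgUFL1, which both tables name alike, 0 of the 7 genes were called in sgUFM1 by edgeR, beside 10.0% of all genes, with 3 of the 7 at an unadjusted p under 0.05 and 1 called in DESeq2. For sgUFL1 against its controls, 0 of the 7 were called by the count names (set A), beside 1.10% of all genes, with 1 at an unadjusted p under 0.05 and 0 in DESeq2. By the FPKM names (set B) ZEB1 was called, beside 35.8% of all genes. In set A against set B 0 of the 7 were called, beside 2.20% of all genes, with 2 at an unadjusted p under 0.05 and 1 (FN1) called in DESeq2. The median log2 difference of the 7 genes was 0.12 for sgUFM1 against the controls for sgUFL1, 0.22 against set B and 0.25 against set A, beside medians over all genes tested of -0.00, 0.01 and -0.01. It was -0.13 for set A and -0.13 for set B, each against the controls for sgUFL1, beside -0.01 and -0.03. The number of the 7 whose libraries did not overlap between groups was 3 for sgUFM1 against the controls for sgUFL1 (33.4% of all genes), 4 against set B (46.7%) and 3 against set A (30.9%). It was 1 for set A against those controls (33.2%), 3 for set B (49.6%) and 2 for set A against set B (24.4%). Comparisons with a set in common share its libraries.

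**Figure D3:**
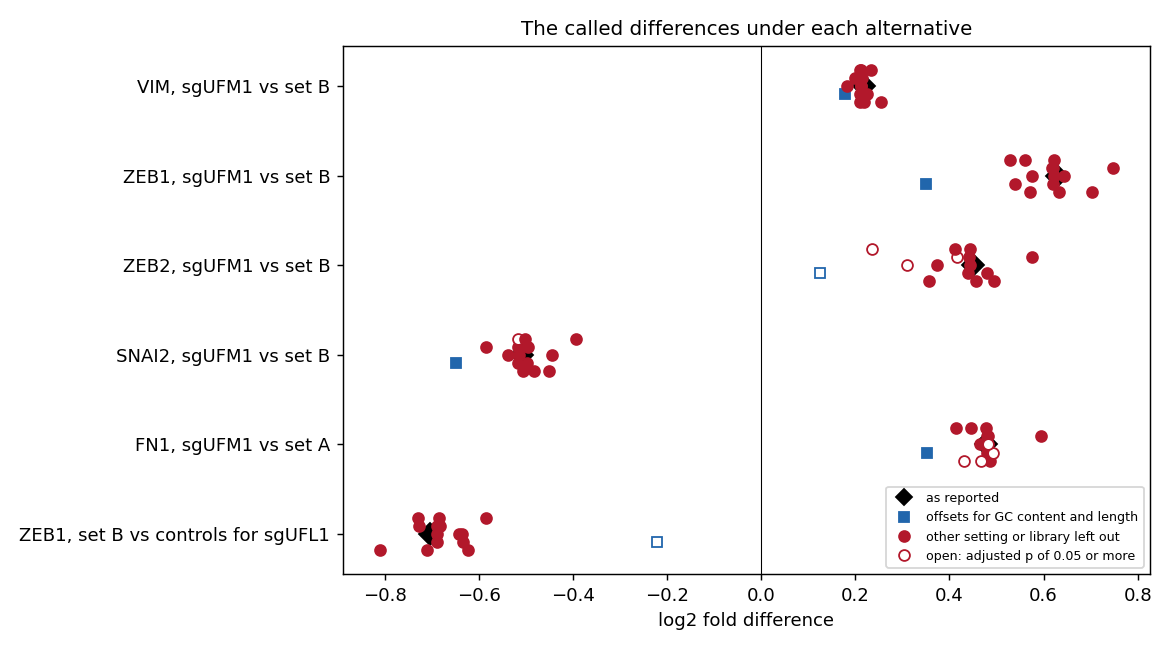
Log2 fold difference (horizontal axis) of the 6 called differences as reported (black diamond), with offsets for GC content and length (blue square) and under 14 other alternatives (red circles), open where the adjusted p was 0.05 or more. ZEB1 in sgUFM1 against set B keeps filled points throughout, though its size ranges from log2 0.35 to 0.75, beside 0.63 as reported. ZEB2 against set B and ZEB1 in set B move towards 0 and lose their call with the offsets.

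Some pairs of genes varied together from library to library, and the 3 described here were chosen for their size after their values were seen. Over the 12 libraries the log2 levels of ZEB1 and ZEB2 had a Pearson r of 0.85 (Spearman rho 0.832), and r of 0.658 once each set was centred on its own mean. FN1 and SNAI2 ran opposite to each other, with r of -0.698 (rho -0.517) and -0.919 after centring. VIM and SNAI2 had r of 0.393 (rho 0.371) and 0.824 after centring. These describe 12 libraries that share sets, scaling and base composition, and 15 pairs were computed. After centring, the other 12 pairs had r between -0.603 (VIM and FN1) and 0.454 (FN1 and ZEB1), and VIM and ZEB1 had 0.00179. Set A replicates 2 and 3 and replicate 2 of the controls for sgUFL1 had the highest SNAI2 and the lowest FN1 levels.

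**Figure D4:**
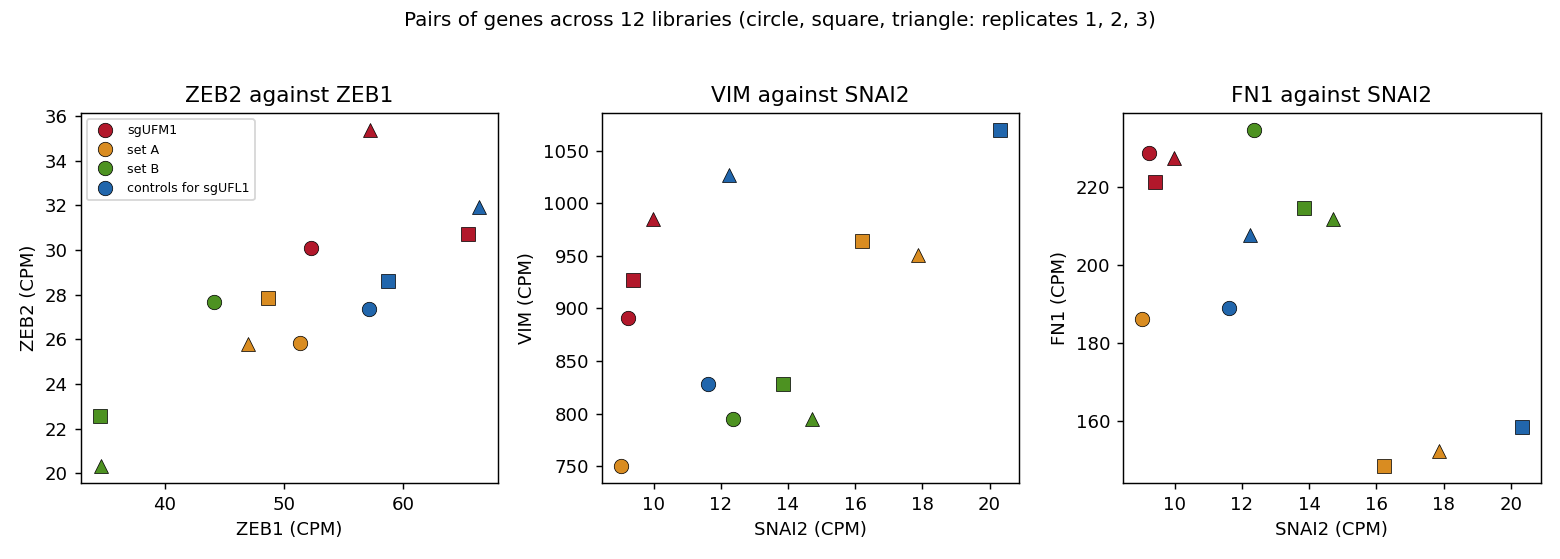
Levels in CPM of ZEB2 against ZEB1, VIM against SNAI2 and FN1 against SNAI2, a point per library, coloured by set. ZEB1 and ZEB2 rise together over the 12 libraries, and FN1 is lowest in the 3 libraries where SNAI2 is highest.

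By likeness of profile over the 12 libraries (Pearson r of log2 CPM, 10540 protein-coding genes), the closest genes were SEC23B (0.976), MCUR1 (0.967) and RPN2 (0.964) for VIM, and GPC4 (0.97), ARHGAP26 (0.962) and MYLIP (0.951) for FN1. They were MAN1A2 (0.984), BBX (0.981) and PHIP (0.979) for ZEB1, and DPY19L3 (0.937), WAPL (0.934) and TLR3 (0.929) for ZEB2. For SNAI2 they were PLK2 (0.979), CTSC (0.953) and RPL6 (0.952). SNAI1 had no close match, with TATDN2 first at 0.744.

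Other mesenchymal and matrix genes moved both ways. Of 27 tested from a list of 34, 5 were higher and 3 lower in sgUFM1 than in the controls for sgUFL1, 9 and 9 against set B, and 2 and 1 against set A, with median log2 differences of 0.20, -0.09 and 0.06. Over all genes tested, 10.0%, 37.8% and 9.72% were called in these 3 comparisons. Each difference of sgUFM1 named from this and the following lists kept its call with offsets for GC content and length. CDH11, a cadherin of mesenchymal cells, was higher in all 3 comparisons, at 254 ± 9.12 CPM in sgUFM1, against 156 ± 29.8 in set A, 142 ± 4.60 in set B and 157 ± 23.1 in the controls for sgUFL1 (log2 0.69 against those controls, adjusted p = 0.00555; 0.85 against set B, 4.22e-09; 0.70 against set A, 0.00677). COL5A1, a collagen chain, and PDGFRB, a growth factor receptor of mesenchymal cells, were 1.60-fold and 1.91-fold higher in sgUFM1 than in the controls for sgUFL1. Neither was among the genes of the list called against set A. TNC, the matrix protein tenascin-C, was at 136 ± 2.93 CPM in sgUFM1 and 132 ± 5.89 in set A, against 208 ± 8.97 in set B (log2 -0.61, adjusted p = 5.17e-07, and -0.67, adjusted p = 0.00418), and it was at 117 ± 12.1 in the controls for sgUFL1, where the difference of sgUFM1 missed the threshold (log2 0.20, adjusted p = 0.223). In set B against the controls for sgUFL1, 10 of the 27 were higher and 1 lower, and with offsets for GC content and length 3 and 1, where 35.8% of all genes were called, and 8.96% with the offsets.

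Among other EMT transcription factors, 2 of 18 were higher and 1 lower in sgUFM1 than in the controls for sgUFL1, 3 and 8 of 19 against set B, and 1 and 2 of 18 against set A, with median log2 differences of 0.03, -0.23 and -0.16, beside the same 10.0%, 37.8% and 9.72% of all genes. SOX4, a factor linked to EMT, was at 57.4 ± 1.77 CPM in sgUFM1, against 41.7 ± 6.74 in set A, 47.3 ± 2.03 in set B and 38.7 ± 2.90 in the controls for sgUFL1 (log2 0.46, adjusted p = 0.0294; 0.29, 0.00619; 0.56, 0.00975). ID3, an inhibitor of helix-loop-helix factors, was at 15.5 ± 1.81 CPM in sgUFM1, against 26.4 ± 5.81 in set A and 26.8 ± 3.03 in set B (log2 -0.77, adjusted p = 0.0146, and -0.78, adjusted p = 2.22e-05). It was at 16.8 ± 4.18 CPM in the controls for sgUFL1, without a call in sgUFM1 (log2 -0.13, adjusted p = 0.686). In set B against the controls for sgUFL1, 7 of 19 were higher, and 2 with the offsets, beside 35.8% and 8.96% of all genes called.

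Among epithelial genes that EMT factors repress, calls in sgUFM1 went in both directions against sets A and B. In sgUFM1, 2 of 20 were higher than in the controls for sgUFL1, 2 were higher and 10 lower than in set B, and 3 higher and 3 lower than in set A, with median log2 differences of 0.19, -0.30 and 0.14. The share called against the controls for sgUFL1 equalled the 10.0% of all genes, and the other counts stand beside 37.8% and 9.72%. EHF, an epithelial ETS factor, was at 10.3 ± 0.926 CPM in sgUFM1, against 2.83 ± 1.85 in set A, 1.95 ± 0.497 in set B and 2.40 ± 1.99 in the controls for sgUFL1, and passed in each comparison, at log2 1.87 against set A (adjusted p = 0.0153), 2.39 against set B (adjusted p = 1.81e-08) and 2.09 against those controls (adjusted p = 0.00762). KRT8, an epithelial keratin, was lower in sgUFM1 (351 ± 3.51 CPM) than in set A (469.6 ± 53.4) and set B (533 ± 59.3), at log2 -0.42 (adjusted p = 0.0158) and -0.60 (adjusted p = 1.69e-06). It was at 359 ± 65.9 CPM in the controls for sgUFL1 (log2 -0.04, adjusted p = 0.863). In set B, 7 of 20 were higher and 1 lower than in the controls for sgUFL1, and 2 and 0 with the offsets, beside 35.8% and 8.96% of all genes. Summed over all 29 genes, the epithelial list reached 962 to 963 CPM in sgUFM1, 1031 to 1201 in set A, 1206 to 1400 in set B and 825 to 1069 in the controls for sgUFL1.

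Partners of the EMT factors and receptors for fibronectin were read from further lists. Of 25 corepressors and turnover factors, 9 were higher and 3 lower in sgUFM1 than in set B and 1 was higher than in set A, with median log2 differences of 0.14 and 0.03. Over all genes tested, 37.8% and 9.72% were called in these comparisons. Against the controls for sgUFL1, 0 were called in sgUFM1 by edgeR (median log2 -0.11), and 1 was higher with the offsets. There 10.0% of all genes were called, and 8.34% with the offsets. In set B, 2 were higher and 10 lower than in the controls for sgUFL1 (median log2 -0.26), and 0 and 1 with the offsets. The shares of all genes called there were 35.8%, and 8.96% with the offsets. The gene called against set A was BMI1, a Polycomb protein, at 96.3 ± 6.54 CPM in sgUFM1, against 68.9 ± 2.61 in set A (log2 0.48, adjusted p = 0.00597) and 64.3 ± 3.35 in set B (log2 0.59, adjusted p = 8.16e-06). It was at 87.9 ± 11.5 CPM in the controls for sgUFL1 (log2 0.13, adjusted p = 0.507), where it passed with the offsets (log2 0.33, adjusted p = 0.0201). Of 15 fibronectin receptors and assembly genes, 4 were higher and 1 lower in sgUFM1 than in the controls for sgUFL1, 6 and 2 against set B, and 2 and 2 against set A, with median log2 differences of 0.43, 0.18 and 0.17, where 10.0%, 37.8% and 9.72% of all genes were called. ITGA5, the fibronectin receptor's alpha chain, was at 233 ± 10.6 CPM in sgUFM1, against 192 ± 12.7 in set A, 187 ± 12.6 in set B and 150.2 ± 22.0 in the controls for sgUFL1 (log2 0.28, adjusted p = 0.0415; 0.32, 0.000676; 0.63, 0.00823). Of the genes called lower on the fibronectin list, TNS1 averaged 1.86 CPM in sgUFM1, against 12.8 in set B (log2 -2.77, adjusted p = 1.16e-09). SDC2 was lower in sgUFM1 than in the controls for sgUFL1 (log2 -0.66, adjusted p = 0.0161) and set A (log2 -0.57, adjusted p = 0.0263). Among 11 cadherin partners and other classical cadherins, CDH4 (R-cadherin) was at 42.7 ± 0.419 CPM in sgUFM1, against 62.7 ± 6.13 in set A and 99.6 ± 0.959 in set B (log2 -0.55, adjusted p = 0.00597, and -1.21, adjusted p = 1.66e-10). It was at 51.5 ± 4.05 CPM in the controls for sgUFL1 (log2 -0.27, adjusted p = 0.123), where it passed with the offsets (log2 -0.52, adjusted p = 0.00716). Among the SPARC family and vimentin-type filaments, NES (nestin, which assembles with vimentin) was at 44.9 ± 3.64 CPM in sgUFM1, against 24.4 ± 0.480 in set A and 22.6 ± 2.72 in the controls for sgUFL1 (log2 0.88, adjusted p = 0.00103, and 0.98, adjusted p = 0.00152). It was at 39.6 ± 2.88 CPM in set B (log2 0.19, adjusted p = 0.0964), where it passed with the offsets (log2 0.38, adjusted p = 0.000192). Cadherin partners counted 3 higher and 3 lower of 11 in sgUFM1 against set B (median log2 -0.00), and the filament list 2 higher and 1 lower of 6 (median log2 0.14). In that comparison 37.8% of all genes were called. Of all 7 lists, set A against the controls for sgUFL1 held 1 called gene, PLEC, the filament linker plectin (log2 0.86, adjusted p = 0.0487), which was lost with other size factors (adjusted p = 0.0527) and with the offsets (log2 0.24, adjusted p = 0.781). Over all genes tested, 1.10% were called between these 2 sets.

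**Figure D5:**
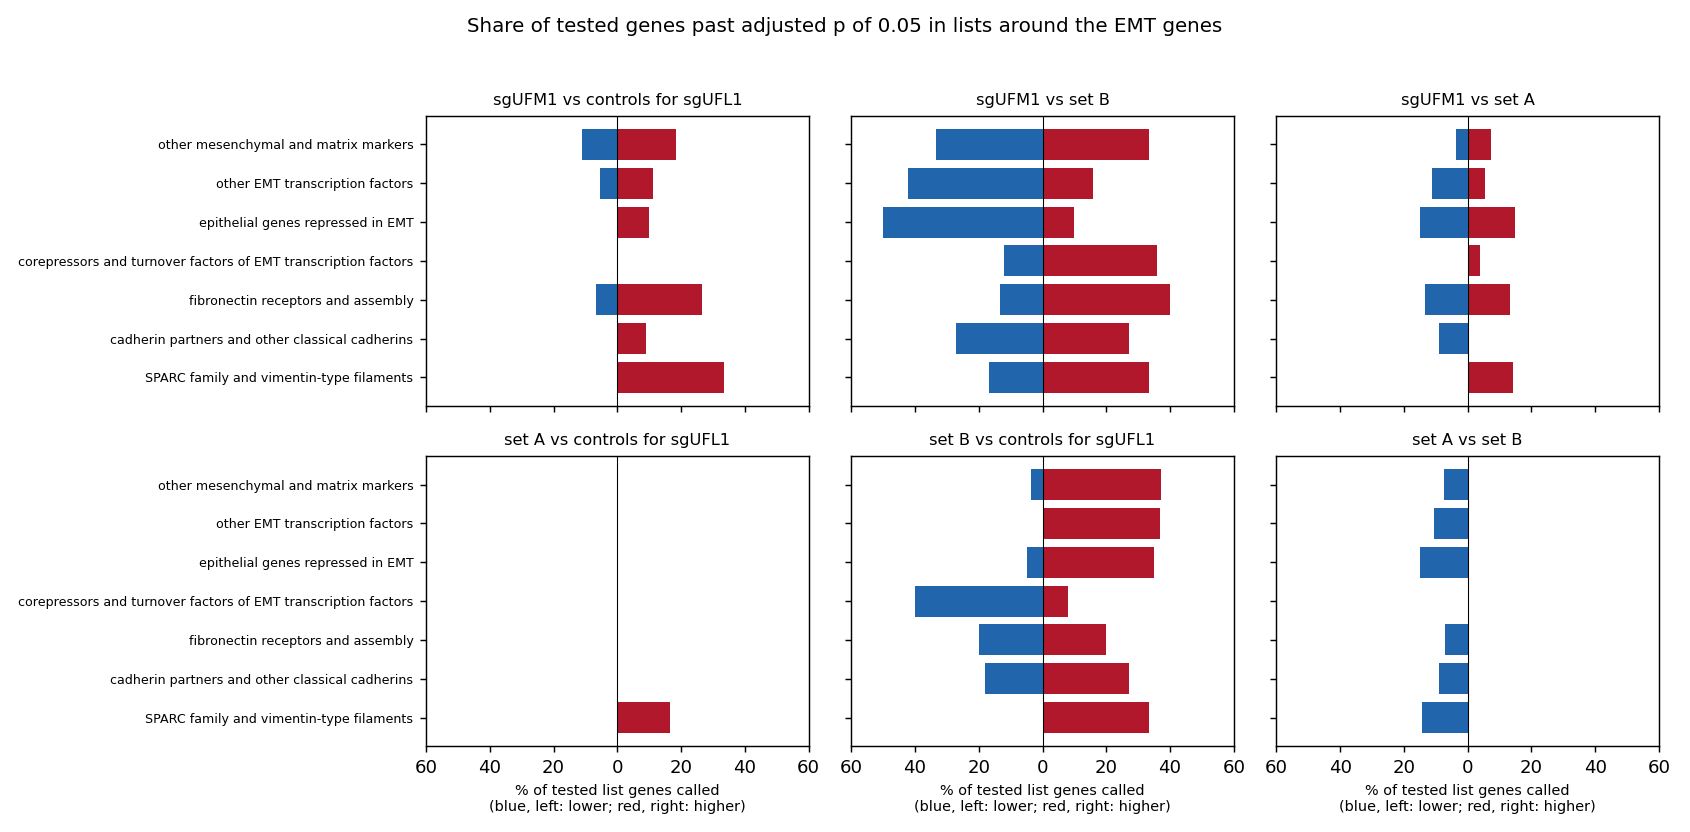
Share of the tested genes of each list that were called higher (red, right) or lower (blue, left), in percent, in the 6 comparisons. Lists are called often in sgUFM1 against set B and in set B against the controls for sgUFL1, where 37.8% and 35.8% of all genes were called, and hardly at all in set A against those controls.

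Markers of other cells were read beside these results. Of 8 leukocyte markers, CD3E and MS4A1 were at 0 in all libraries and 6 were below 1 CPM, and the list summed to 5.99 to 6.24 CPM in sgUFM1, 4.03 to 5.05 in set A, 5.25 to 5.90 in set B and 3.59 to 4.76 in the controls for sgUFL1. Of 9 endothelial markers 5 were below 1 CPM in all libraries, CDH5 among them, and the list summed to 40.2 to 42.9 CPM in sgUFM1, 24.5 to 40.7 in set A, 48.8 to 53.2 in set B and 24.2 to 32.6 in the controls for sgUFL1. PECAM1 was at 26.8 ± 2.33 CPM in sgUFM1, against 7.78 ± 2.68 in the controls for sgUFL1, and TIE1 at 34.0 ± 3.42 CPM in set B, against 12.3 ± 4.62 in those controls. KDR, an endothelial growth factor receptor gene, was lower in sgUFM1 than in the controls for sgUFL1 (2.76 ± 0.413 against 6.64 ± 2.33 CPM, log2 -1.27, adjusted p = 0.0185). KDR and TIE1 were lower in sgUFM1 than in set B (log2 -0.98, adjusted p = 0.000931, and -1.61, adjusted p = 5.96e-10). PECAM1 went the other way, higher in sgUFM1 than in set B (log2 1.46, adjusted p = 1.10e-08). It was also higher than in set A (log2 1.56, adjusted p = 0.00119). The 13 luminal breast markers summed to 816 to 827 CPM in sgUFM1, 817 to 1030 in set A, 914 to 1089 in set B and 649 to 941 in the controls for sgUFL1. Of the 11 luminal genes tested, 5 were higher and 0 lower in sgUFM1 than in those controls (median log2 0.81), 5 and 3 against set B, and 3 and 2 against set A. Over all genes tested, 10.0%, 37.8% and 9.72% were called in these comparisons. SPDEF averaged 54.2 CPM in sgUFM1, against 18.0 CPM in the controls for sgUFL1 (log2 1.59, adjusted p = 0.00726), and TFF1, TFF3 and AGR2 were 5.52-fold, 3.52-fold and 1.90-fold higher. TFF1 was low in both, at a mean of 2.40 CPM in sgUFM1 and 0.43 CPM in those controls. KRT8, also on the luminal list, was called lower in sgUFM1 than in set B (log2 -0.60) and in set A (log2 -0.42). Called higher than in set B were, among others, AGR2 (log2 2.07), TFF3 (log2 1.19) and SPDEF (log2 1.135). Those called higher than in set A were TFF1 (log2 1.81), AGR2 (log2 1.545) and XBP1 (log2 0.52). The part of these markers in the differences of the 9 genes was not tested, and in bulk RNA a change in the share of cells cannot be told apart from a change in RNA per cell.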

How the data were processed

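RNA was isolated with TRIzol and sequenced on Illumina libraries of unstated strandedness, per the labels. The deposited tables give read counts and FPKM values per gene for 12 libraries, made with fastp 0.20.1, STAR 2.7.7a, featureCounts 2.0.0 and the GRCh38 build, per the submitters' processing notes. All 58735 gene IDs are in GENCODE release 29. FPKM columns were paired with count columns by proportionality (SD of the log2 ratio at most 2.59e-10, next best at least 0.151), and 6 stood under another name. No group was assigned from measured values. The chi-square between replicates (2.48 to 39.6 per gene) exceeded sampling noise, and no library was merged with another.

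Counts were tested in edgeR 4.0.16 (R 4.3.3) with filterByExpr, TMM scaling, the quasi-likelihood test and Benjamini-Hochberg adjustment at 0.05 over all genes tested, in the 6 libraries of a comparison. The procedure was tested on simulated data. The 9 genes and the lists (191 symbols, 190 matched directly and 1 by gene ID) were chosen with earlier results of these data known. Named list genes come from the 4 of smallest p per list and comparison, like profiles are the 3 closest genes, and TWIST2 and the miR-200 genes were chosen after their values were seen. Not all of the 4 are described, and the called differences described for sgUFM1 are ones that kept their call with offsets for GC content and length. A marker gene is left out and not reported here. Alternatives were RLE scaling, no filter, DESeq2 1.42.0, 1 fit over 12 libraries, a replicate block, offsets for GC content and length (lowess span 0.3), limma 3.58.1 on log2(FPKM + 0.5, 0.1 or 1) where 3 libraries reached 0.5 FPKM, and each library left out.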

Additional observations from a re-analysis of the deposited data

How the results depend on the processing

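The number of the 9 genes called was steady in set A against the controls for sgUFL1 (0 in every alternative). For sgUFM1 against the controls for sgUFL1 it was 0, and 1 with no filter on low counts, in DESeq2 and with offsets for GC content and length, and 0 to 1 with a library left out. For sgUFM1 against set B it was 4, 3 in each of the 3 limma fits on FPKM, where ZEB2 was lost, and 2 in 1 fit over all 12 libraries, with 4 called whichever library was left out. For sgUFM1 against set A it was 1, and 2 with no filter, and 0 to 3 with a library left out. For set B against the controls for sgUFL1 it was 1, and 2 in the 12-library fit, and 1 to 2 with a library left out. For set A against set B it was 0, and 2 with no filter, 1 in DESeq2, 1 in the 12-library fit, 2 with the replicate block, 1 with the offsets, and 0 to 2 with a library left out. With the offsets sgUFM1 against set B again had 4, with FN1 (lower) called in place of ZEB2. FN1 there, at log2 -0.20 (adjusted p = 0.00313), was the 1 difference that turned direction and passed the threshold, and the cause was not tested.

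Libraries with the same replicate number had correlations of -0.212 to 0.378 in their deviations from the set means, and no comparison had all 3 pairs over 0.1. With 3 libraries per set, these correlations cannot decide whether a replicate number marks a shared batch. The reported tests used no pairing. With the replicate block set A against set B gained FN1 (adjusted p = 0.0134) and ZEB1 (adjusted p = 0.0432), and the block changed no other call of a member. Counts over all genes moved more. They were 1503 for sgUFM1 against the controls for sgUFL1 (400 to 2565 in other settings, 275 to 4196 with a library left out), 5697 against set B (3023 in the 12-library fit), 1456 against set A (768 to 2082, and 118 to 4080), 165 for set A against the controls for sgUFL1 (0 to 3463, and 0 to 2419), 5438 for set B (1359 with the offsets, 2486 to 6985 with a library left out) and 330 for set A against set B (28 to 1116, and 13 to 2564). Of 612 values of the 7 tested members under alternatives, 579 stayed on their side of the threshold, 22 gained the call and 11 lost it. Of 33 that changed sign, 32 were called in neither setting, with sizes up to log2 0.32. SPARC, CDH2 and TWIST1 had few or 0 counts, which limits what can be said of them. Which of sets A and B carried which guide cannot be told apart from the names.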

Other observations

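Among genes outside the 9, SNAI3, another snail family member, was at 0.717 ± 0.276 CPM in sgUFM1, 0.277 ± 0.0716 in set A, 1.26 ± 0.274 in set B and 0.325 ± 0.23 in the controls for sgUFL1, and was lower in set A than in set B (log2 -2.16, adjusted p = 0.0373; edgeR). SNAI3 was also higher in set B than in the controls for sgUFL1 (log2 1.9, adjusted p = 0.0171), but not with the offsets (log2 1.09, adjusted p = 0.246). Its levels in set A and in those controls were near the limit of 3 counts (0.164 to 0.197 CPM). CDH3, the P-cadherin gene, was at 0.506 ± 0.134 CPM in sgUFM1, against 2.12 ± 0.466 in set B (log2 -2.04, adjusted p = 0.000313). It missed the threshold in sgUFM1 against set A (log2 -1.27, adjusted p = 0.108) and the controls for sgUFL1 (log2 -1.61, adjusted p = 0.0602). The integrin chains ITGA3 and ITGB5 were at 868.5 ± 34.5 and 194 ± 10.0 CPM in sgUFM1, against 567 ± 64.9 and 112 ± 17.3 CPM in the controls for sgUFL1 (log2 0.61, adjusted p = 0.00744, and 0.79, adjusted p = 0.00293; for ITGA3 log2 0.31, adjusted p = 0.0411 with the offsets). ITGA3 was at 775 ± 58.2 CPM in set A and 920.1 ± 42.9 in set B, without a call in sgUFM1 against either (log2 0.17, adjusted p = 0.24, and -0.08, adjusted p = 0.33). ITGB5 was at 154 ± 26.3 CPM in set A (log2 0.34, adjusted p = 0.077) and 173 ± 14.6 in set B (log2 0.18, adjusted p = 0.0488). With the offsets ITGB5 passed against both (log2 0.39, adjusted p = 0.0459, and 0.26, adjusted p = 0.000484).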
